A study of Mus musculus with 12 samples.

Results

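The 10 genes described here sense glucose, carry it across membranes or pass on the insulin signal, and they were followed in the glomeruli of diabetic and nondiabetic mice. They were taken by symbol from a table of 14096 genes, and all 10 were found: the glucose-sensing transcription factors Mlxip and Mlxipl, the glucose-induced alpha-arrestins Txnip and Arrdc4, the glucose transporters Slc2a1, Slc2a2 and Slc5a2, and the insulin receptor Insr with its substrates Irs1 and Irs2. The rule used their names and no threshold on their values. Each of the 12 libraries was glomerular mRNA of 1 male mouse, and every mouse, the controls included, lacked endothelial nitric oxide synthase (eNOS-/-) on the C57BL/6J background. The diabetic mice had been given streptozotocin, a toxin of the insulin-producing beta cells, when 8 weeks old (50 mg/kg on each of 5 days), and the nondiabetic mice citrate buffer. Arctigenin (ATG), a plant lignan, or 5% DMSO as its vehicle was given by gavage each day for 8 weeks, beginning 10 weeks after induction, with ATG at 40 mg/kg. The 4 groups, nondiabetic vehicle, nondiabetic ATG, diabetic vehicle and diabetic ATG, held 3 mice each. The model is therefore one of insulin loss in mice without eNOS, and it has no insulin-treated or eNOS-intact group.

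Glucose that enters a cell is phosphorylated, and the resulting sugar phosphates activate MondoA (the product of Mlxip) and ChREBP (the product of Mlxipl), which pair with Mlx on carbohydrate response elements of their target genes. Txnip and Arrdc4 are classical targets of this pair and restrain glucose uptake, in part by removing the transporter GLUT1 (Slc2a1) from the cell surface. In the kidney, SGLT2 (Slc5a2) takes filtered glucose into proximal tubule cells and GLUT2 (Slc2a2) releases it to the blood, whereas insulin acts on podocytes, endothelial cells and tubule cells through the insulin receptor and its docking proteins IRS-1 and IRS-2.

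The promoters of both sensor targets, Txnip and Arrdc4, are shown because the response element is where glucose sensing meets transcription. The sequences were those of RefSeq on build GRCm38.p6 and ran from 250 bases before to 50 bases after the start of each gene, 5′ to 3′ on the strand of the gene. Capitals mark the response element letters in Txnip, CACGNG and CNCGNG parted by 5 bases, and the E-box CACGTG, the single binding site of this factor family, in Arrdc4. The Txnip window was chr3:96557707-96558006 on the plus strand, and the Arrdc4 window was chr7:68749189-68749488 on the minus strand.
Txnip: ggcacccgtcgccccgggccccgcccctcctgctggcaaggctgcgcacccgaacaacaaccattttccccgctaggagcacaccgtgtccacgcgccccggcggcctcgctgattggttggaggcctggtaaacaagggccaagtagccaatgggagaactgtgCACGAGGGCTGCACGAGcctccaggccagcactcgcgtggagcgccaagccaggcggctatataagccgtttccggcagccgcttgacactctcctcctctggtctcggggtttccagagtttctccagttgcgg
Arrdc4: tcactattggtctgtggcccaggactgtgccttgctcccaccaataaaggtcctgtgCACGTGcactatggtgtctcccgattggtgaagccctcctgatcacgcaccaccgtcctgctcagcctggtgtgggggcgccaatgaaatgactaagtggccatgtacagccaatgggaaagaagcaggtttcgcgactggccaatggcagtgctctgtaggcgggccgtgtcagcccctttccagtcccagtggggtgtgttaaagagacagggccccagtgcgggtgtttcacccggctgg
The Txnip letters lay 85 to 69 bases before the start, and Txnip was the only 1 of the 8 genes with a window in the table whose window held them. Both strands were searched, and 0.365% of all 32851 windows held such letters. The Arrdc4 E-box began 193 bases before the start. An E-box also stood in windows of Mlxipl, Irs1 and Irs2, and 7.15% of all windows held at least 1. Slc5a2 and Insr had no window in the table.

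The deposited values were log2 normalised read numbers, in which a difference of 1 is a doubling. Libraries held 23.6 to 29.8 M reads on the listed genes, and the lowest value of any of the 10 genes in any mouse rested on 326 reads. Podocyte markers were high in every mouse, with a median over 15 genes of 1885 to 5048 normalised reads per kilobase, as the label of glomeruli calls for. Markers of proximal tubule, which a clean glomerular preparation would lack, were present in every mouse too and differed with diabetes: their mean log2 value over 24 genes was 11.56 to 12.36 in nondiabetic vehicle, 12.55 to 13.23 in nondiabetic ATG, 9.70 to 10.88 in diabetic vehicle and 10.34 to 11.18 in diabetic ATG mice. With diabetes, 19 of the 24 were lower in vehicle-treated and 23 in ATG-treated mice, and none was higher. The labels' protocol also describes a flow sort of dissociated glomerular cells into EYFP+ and EYFP- fractions (EYFP is a fluorescent protein), a step that can remove tubule cells from a fraction. The RNA is labelled as extracted from glomeruli, and which of these libraries, if any, came from sorted cells is not stated. In such bulk RNA, fewer cells of a type and less RNA per cell cannot be told apart. The nondiabetic ATG mice were spread widely, with podocyte means of 13.25, 13.99 and 12.82 in mice 1, 2 and 3 and means of 12.97, 12.56 and 13.37 over 15 markers of distal nephron and collecting duct. These distal markers were also lower with diabetes, at 12.49 to 12.58 in nondiabetic and 10.82 to 12.24 in diabetic vehicle mice and at 11.57 to 11.88 in diabetic ATG mice. The mean of 13 endothelial markers was 12.96 to 13.12 in nondiabetic vehicle, 12.05 to 12.76 in nondiabetic ATG, 13.40 to 13.49 in diabetic vehicle and 13.42 to 13.55 in diabetic ATG mice. The mean of 10 mesangial markers was 10.86 to 11.29 in nondiabetic ATG mice, below the 11.63 to 12.15 of the other groups.

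Diabetes changed 3 of the 10 genes in vehicle-treated mice, raising Arrdc4 and lowering Slc5a2 and Insr (limma, adjusted p under 0.05). Over all 14096 genes 18.9% passed, 10.2% higher and 8.63% lower. In ATG-treated mice diabetes changed 5 of the 10, with Mlxip higher and Mlxipl, Slc2a1, Slc2a2 and Slc5a2 lower, against 46.7% of all genes (25.9% higher and 20.8% lower). ATG changed 0 of the 10 in diabetic mice, where 0% of all genes passed (0 of 14096, and 0 also by limma-voom). At an unadjusted p under 0.05, that contrast held 4.51% of all genes (636 of 14096) and 3 of the 10, namely Arrdc4, Mlxip and Insr. ATG also changed 0 of the 10 in nondiabetic mice, against 5.22% of all genes, with 2 of the 10 at an unadjusted p under 0.05, against 30.2% of all genes. Of the 736 genes that passed in nondiabetic mice 100 were higher, and with libraries rescaled by median ratios 130 of 538 were. This number of genes rests on single mice, from 60 without nondiabetic vehicle mouse 2 to 3531 (1064 higher) without nondiabetic ATG mouse 2, and it was 0 when only the compared groups were fitted and 8 without both unnumbered mice. The difference between the effect of ATG in diabetic and in nondiabetic mice passed for 0 of the 10 and for 0.546% of all genes. By limma-voom 0 of the 10 passed in these last contrasts as well. The contrasts share groups, so that their values are given side by side and are not independent.

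**Figure D1:**
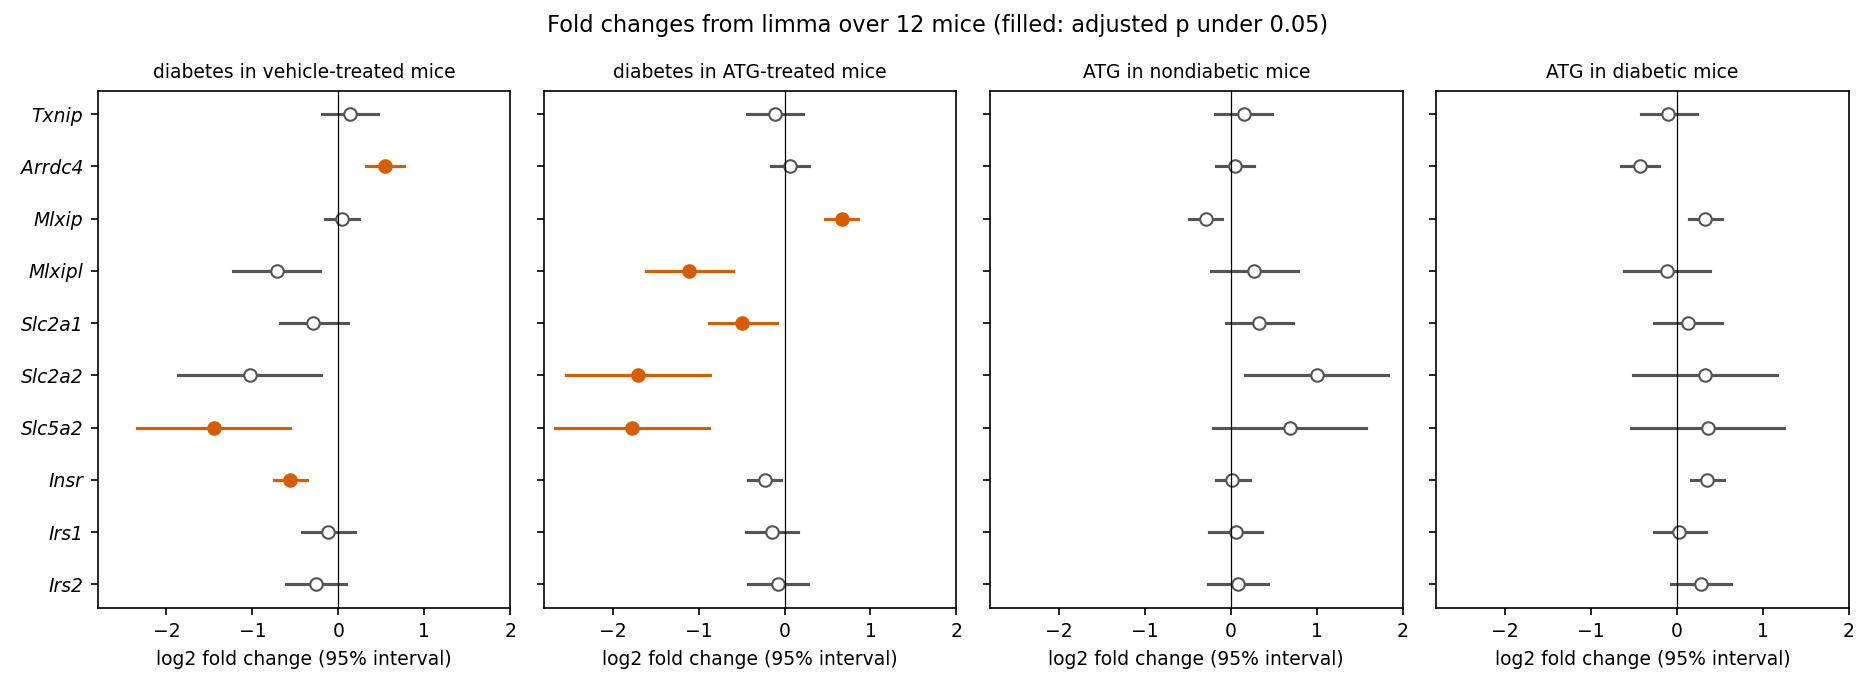
Log2 fold change of each of the 10 genes with its 95% confidence interval (limma, 12 mice, 3 per group) in 4 contrasts. Filled orange points passed an adjusted p under 0.05: Arrdc4, Slc5a2 and Insr for diabetes in vehicle-treated mice and Mlxip, Mlxipl, Slc2a1, Slc2a2 and Slc5a2 for diabetes in ATG-treated mice, with none for ATG.

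Taken as a list, the 10 genes had a median log2 change of -0.28 with diabetes in vehicle-treated mice, where the median of all genes was 0.01. Under ATG the diabetes median was -0.19 against 0.05. The ATG medians were 0.20 against -0.01 in diabetic and 0.12 against -0.04 in nondiabetic mice. These medians pool unlike genes. With diabetes in vehicle-treated mice they ran from -1.45 (Slc5a2) to 0.54 (Arrdc4), and Slc5a2, Slc2a2 and Mlxipl varied with the proximal tubule markers. The most abundant of the 10, per length of transcript, was Txnip, with a median level of 11450 normalised reads per kilobase, above 98.9% of listed genes. Slc2a1 (894), Slc5a2 (877), Insr (611) and Slc2a2 (343) came next. Irs2 (229), Irs1 (190), Mlxipl (156), Mlxip (149) and Arrdc4 (139) had the lowest levels per kilobase. These medians are taken over groups that differ, and most neighbours do not separate: Slc5a2 ran from 328 to 2535 across mice, Slc2a1 from 557 to 1410, Insr from 408 to 718 and Slc2a2 from 132 to 998. In nondiabetic ATG mice Slc2a2 (902 ± 137, SD, n = 3) stood above Insr (674 ± 58.9). Txnip was above the others in every mouse, and the ranges of the 5 least abundant genes overlapped their neighbours.

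**Figure D2:**
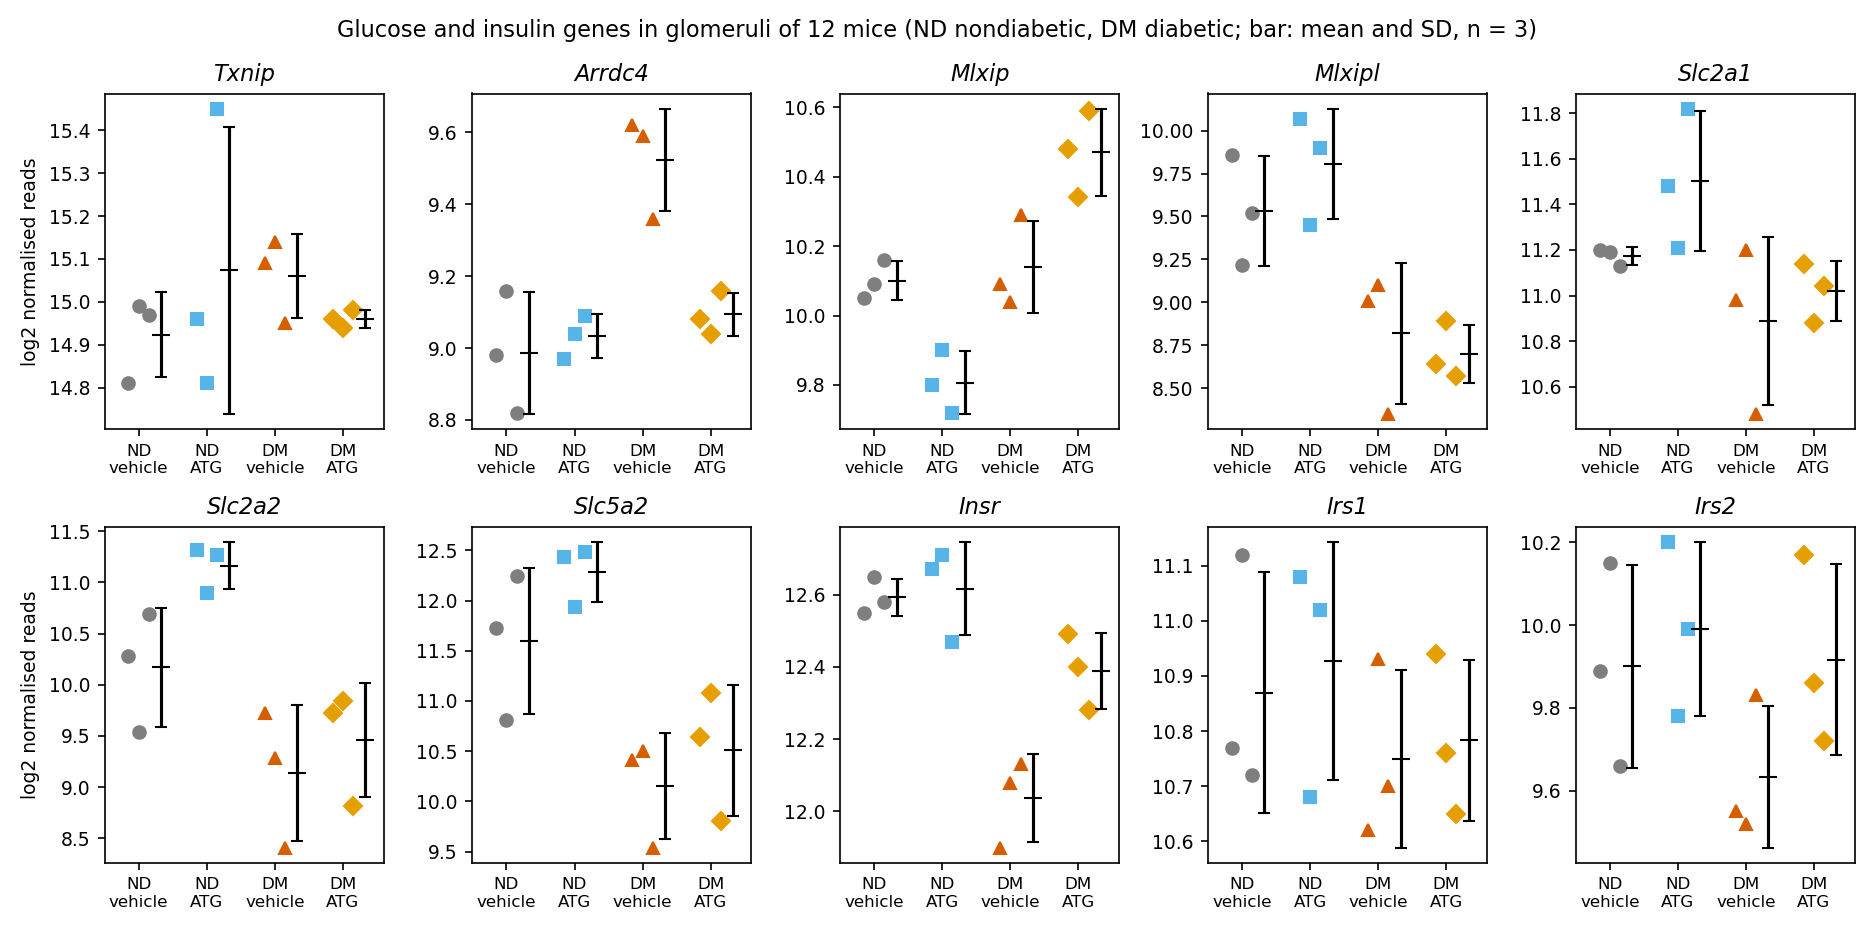
Log2 normalised reads of each gene in each of the 12 mice, by group (ND nondiabetic, DM diabetic), with the group mean and SD (n = 3) beside the points; each panel has its own vertical axis. The diabetic vehicle mice lie above all others for Arrdc4 (9.36 to 9.62) and below all others for Insr (11.90 to 12.13), and Slc5a2 and Mlxipl are lower in both diabetic groups.

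Of the glucose sensors, Mlxip was higher and Mlxipl lower in diabetic than in nondiabetic mice on ATG. Mlxip (chromosome 5, 123394521 to 123457932, plus strand, GRCm38.p6) encodes MondoA, the sensor found in most tissues. Its log2 values were 10.05, 10.09 and 10.16 in nondiabetic vehicle mice and 10.09, 10.04 and 10.29 in diabetic vehicle mice. Under ATG they were 9.80, 9.90 and 9.72 in nondiabetic and 10.48, 10.34 and 10.59 in diabetic mice. The 2 vehicle groups overlapped, the nondiabetic ATG mice lay below every other mouse and the diabetic ATG mice above every other. The endothelial, mesangial and podocyte markers were lowest in the nondiabetic ATG group too, and Mlxip correlated over the 12 mice at r = 0.835 with the endothelial, 0.696 with the podocyte and 0.694 with the mesangial mean, and their part in its changes was not tested. The change with diabetes passed in ATG-treated mice, with a log2 change of 0.67 (SE 0.089, 95% interval 0.47 to 0.86, limma adjusted p = 0.000396). In vehicle-treated mice it was 0.04 (SE 0.089, adjusted p = 0.774). The difference between the effects of ATG was 0.62 on the log2 scale (SE 0.13, adjusted p = 0.0583) and did not pass. It passed without nondiabetic ATG mouse 2 (0.67, adjusted p = 0.0222) or diabetic vehicle mouse 3 (0.70, adjusted p = 0.0451). The effects of ATG themselves were 0.33 (SE 0.089, adjusted p = 0.917) in diabetic mice and -0.29 (SE 0.089, adjusted p = 0.0725) in nondiabetic mice. The latter passed without nondiabetic ATG mouse 2 (-0.34, adjusted p = 0.0302) or diabetic vehicle mouse 3 (-0.29, adjusted p = 0.0454).

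Mlxipl encodes ChREBP, the sensor of liver, fat, intestine and kidney tubule (chromosome 5, 135089890 to 135139768, plus strand). It was at 9.86, 9.22 and 9.52 in nondiabetic vehicle mice and at 9.01, 9.10 and 8.35 in diabetic vehicle mice. Under ATG it was at 10.07, 9.45 and 9.90 in nondiabetic and at 8.64, 8.89 and 8.57 in diabetic mice. Every diabetic mouse lay below every nondiabetic mouse. The fall with diabetes passed in ATG-treated mice, with a log2 change of -1.11 (SE 0.23, 95% interval -1.61 to -0.60, limma adjusted p = 0.00321). In vehicle-treated mice the change was -0.71 (SE 0.23, adjusted p = 0.0505), just outside the threshold. It came inside without nondiabetic vehicle mouse 2 (-0.87, adjusted p = 0.0471), nondiabetic ATG mouse 2 (-0.71, adjusted p = 0.0342) or diabetic vehicle mouse 2 (-0.85, adjusted p = 0.0364). ATG changed Mlxipl by -0.12 (SE 0.23) in diabetic and 0.27 (SE 0.23) in nondiabetic mice, and neither passed.

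Of the sensors' targets, Arrdc4 rose with diabetes and Txnip did not pass. Arrdc4, an alpha-arrestin adaptor (chromosome 7, 68736994 to 68749238, minus strand; its promoter is printed above), was at 8.98, 9.16 and 8.82 in nondiabetic vehicle mice and at 9.62, 9.59 and 9.36 in diabetic vehicle mice. The groups did not overlap, and the log2 change was 0.54 (SE 0.10, 95% interval 0.32 to 0.76, limma adjusted p = 0.00777), a fold of 1.45. It stayed past the threshold without any single mouse, at 0.45 to 0.63. In ATG-treated mice Arrdc4 was at 8.97, 9.04 and 9.09 without and at 9.08, 9.04 and 9.16 with diabetes. The ATG-treated diabetic mice thus lay within the range of the nondiabetic vehicle mice, and below all 3 vehicle-treated diabetic mice. The effect of diabetes under ATG was 0.06 (SE 0.10, adjusted p = 0.658) and that of ATG in diabetic mice -0.43 (SE 0.10, 95% interval -0.65 to -0.21). The ATG difference ranked 19 of 14096 by p (unadjusted p = 0.00129) and did not pass the adjustment (adjusted p = 0.804). The difference between the effects of ATG did not pass either (-0.48, SE 0.14, adjusted p = 0.197).

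Leukocyte markers were highest in the diabetic vehicle group, as Arrdc4 was. Their mean log2 value over the 11 listed of 14 markers was 7.94 to 8.59 in nondiabetic vehicle, 7.47 to 7.90 in nondiabetic ATG, 8.45 to 9.01 in diabetic vehicle and 7.81 to 8.68 in diabetic ATG mice, and the T and B cell markers Cd3e, Cd3g and Cd79a were not listed. With diabetes, 4 of the 11 were higher and 0 lower in vehicle-treated mice, and 4 were higher and 0 lower in ATG-treated mice, beside 10.2% and 25.9% of all genes higher. Across the 12 mice Arrdc4 correlated with this mean at r = 0.791, and at r = 0.685 after each group's mean was taken off, both as descriptions of libraries that share groups. With the leukocyte mean as a covariate, chosen after the data were seen, the Arrdc4 change with diabetes was 0.39 (adjusted p = 0.0856), in a fit where 1.34% of all genes passed.

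Txnip, the thioredoxin-interacting protein whose promoter carries the response element letters (chromosome 3, 96557957 to 96561857, plus strand), was at 14.81, 14.99 and 14.97 in nondiabetic vehicle mice and at 15.09, 15.14 and 14.95 in diabetic vehicle mice. It was at 14.96, 14.81 and 15.45 in nondiabetic ATG mice and at 14.96, 14.94 and 14.98 in diabetic ATG mice. All groups overlapped, and the highest value belonged to nondiabetic ATG mouse 3, the library with the lowest podocyte marker mean. Without that mouse the ATG difference in nondiabetic mice was -0.04. The log2 change with diabetes was 0.13 in vehicle-treated mice (SE 0.15, 95% interval -0.19 to 0.46, limma adjusted p = 0.558) and -0.11 in ATG-treated mice (SE 0.15, adjusted p = 0.563). The latter ran from -0.24 to 0.08 when a mouse was left out. ATG changed Txnip by -0.10 (SE 0.15) in diabetic and 0.15 (SE 0.15) in nondiabetic mice, neither past the threshold. The interval for vehicle-treated mice leaves room for a rise of up to 0.46 on the log2 scale, and a miss of the threshold does not show that the level was the same. Txnip and Arrdc4 correlated across the 12 mice at r = 0.32. After group means were taken off, Txnip correlated at -0.84 with the podocyte, -0.826 with the endothelial and 0.658 with the distal marker mean. The part of these markers in its values was not tested.

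Of the proximal tubule transporters, Slc5a2 fell with diabetes in both treatments and Slc2a2 under ATG. Slc5a2, which encodes SGLT2 (chromosome 7, 128265683 to 128272430, plus strand), was at 11.73, 10.81 and 12.25 in nondiabetic vehicle mice and at 10.41, 10.50 and 9.54 in diabetic vehicle mice. It was at 12.43, 11.94 and 12.48 in nondiabetic ATG mice and at 10.64, 11.08 and 9.80 in diabetic ATG mice. Nondiabetic and diabetic mice did not overlap within either treatment. The log2 change with diabetes was -1.45 in vehicle-treated mice (SE 0.40, 95% interval -2.34 to -0.56, limma adjusted p = 0.0321), a fold of 0.367. Under ATG it was -1.77 (SE 0.40, adjusted p = 0.00518), a fold of 0.292. The call in vehicle-treated mice was lost without nondiabetic vehicle mouse 1 (-1.38, adjusted p = 0.104) or 3 (-1.12, adjusted p = 0.113) and without diabetic vehicle mouse 1 (-1.58, adjusted p = 0.0667) or 3 (-1.14, adjusted p = 0.0881). It was lost as well when only the compared groups were fitted (-1.45, adjusted p = 0.0539) and with the leukocyte mean as a covariate (-1.23, adjusted p = 0.184). ATG changed Slc5a2 by 0.36 (SE 0.40) in diabetic and 0.69 (SE 0.40) in nondiabetic mice, neither past the threshold.

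Slc2a2, which encodes GLUT2 (chromosome 3, 28697903 to 28728361, plus strand), was at 10.28, 9.54 and 10.69 in nondiabetic vehicle mice and at 9.72, 9.28 and 8.41 in diabetic vehicle mice. It was at 11.32, 10.90 and 11.27 in nondiabetic ATG mice and at 9.72, 9.84 and 8.82 in diabetic ATG mice. The vehicle groups overlapped through nondiabetic mouse 2, while under ATG every diabetic mouse was lower. Diabetes lowered Slc2a2 in ATG-treated mice by a log2 change of -1.71 (SE 0.38, 95% interval -2.54 to -0.87, limma adjusted p = 0.00453). In vehicle-treated mice the change was -1.03 (SE 0.38, adjusted p = 0.0765), and without nondiabetic vehicle mouse 2 it was -1.35 (adjusted p = 0.0494). All 3 nondiabetic mice on ATG exceeded those on vehicle, with a log2 difference of 1.00 (SE 0.38, adjusted p = 0.118) that did not pass.

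Slc2a1, which encodes the widely expressed GLUT1 (chromosome 4, 119108745 to 119137330, plus strand), was at 11.20, 11.19 and 11.13 in nondiabetic vehicle mice and at 10.98, 11.20 and 10.48 in diabetic vehicle mice. It was at 11.48, 11.21 and 11.82 in nondiabetic ATG mice and at 11.14, 10.88 and 11.04 in diabetic ATG mice. The vehicle groups overlapped, and under ATG the diabetic mice lay below the nondiabetic mice, narrowly (11.14 against 11.21 for the nearest pair). The change with diabetes passed under ATG at -0.49 (SE 0.18, limma adjusted p = 0.0441) and was -0.29 (SE 0.18, adjusted p = 0.275) in vehicle-treated mice. The call under ATG was lost in 9 of the 12 fits that left out a mouse (all but nondiabetic ATG mouse 2 and diabetic vehicle mice 2 and 3), at -0.33 without nondiabetic ATG mouse 3 (adjusted p = 0.171) and at -0.55 to -0.42 without the other 8. By limma-voom the adjusted p was 0.0501, and with the replicate number as a block the change was -0.32 (adjusted p = 0.219). The nondiabetic mice called 3 here carry no number, and the block set them apart from the diabetic mice numbered 3. That block fit thus compared diabetes only within numbers 1 and 2. Without nondiabetic ATG mouse 3 the other 4 genes called under ATG still passed. Over the 12 mice Slc2a1 correlated at r = 0.942 with the mean of the distal nephron and collecting duct markers, at 0.772 with that of proximal tubule and at -0.937 with that of podocytes. After the group means were taken off, these were 0.968, 0.391 and -0.892, as a description of these libraries. The part of the distal and podocyte markers in the Slc2a1 change was not tested.

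Slc5a2, Slc2a2 and Mlxipl moved with the proximal tubule markers within groups as well as between them. After each group's mean was taken off, r with the marker mean over the 12 mice was 0.877 for Slc5a2, 0.854 for Slc2a2 and 0.810 for Mlxipl, while it was 0.004 for Insr (0.778 before the group means were taken off), 0.011 for Txnip, -0.176 for Arrdc4 and -0.628 for Mlxip. Relative to the marker mean of the same mouse, Slc5a2 stood at -0.75 to -0.12 log2 units in nondiabetic vehicle, -0.80 to -0.07 in nondiabetic ATG, -0.38 to -0.14 in diabetic vehicle and -0.54 to -0.09 in diabetic ATG mice. On that relative scale the 4 groups overlapped for Slc5a2. The vehicle groups did not overlap for Slc2a2, at -2.02 to -1.67 in nondiabetic and -1.60 to -0.83 in diabetic mice, nor for Mlxipl, at -2.84 to -2.23 and -1.79 to -1.35. Under ATG the groups overlapped for Slc2a2, at -1.90 to -1.29 and -1.52 to -1.16. Mlxipl did not overlap there either, at -3.16 to -2.65 and -2.28 to -1.77. The marker mean itself differed between the groups. Txnip, Arrdc4, Mlxip, Slc2a1, Insr, Irs1 and Irs2 separated on this scale too, in both treatments and with the diabetic mice higher. Txnip, for example, was at 2.61 to 3.43 in nondiabetic and 4.26 to 5.25 in diabetic vehicle mice. Only Slc5a2 overlapped between the vehicle groups, so that separation on this scale does not set Slc2a2 or Mlxipl apart. No difference on this scale was tested.

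**Figure D3:**
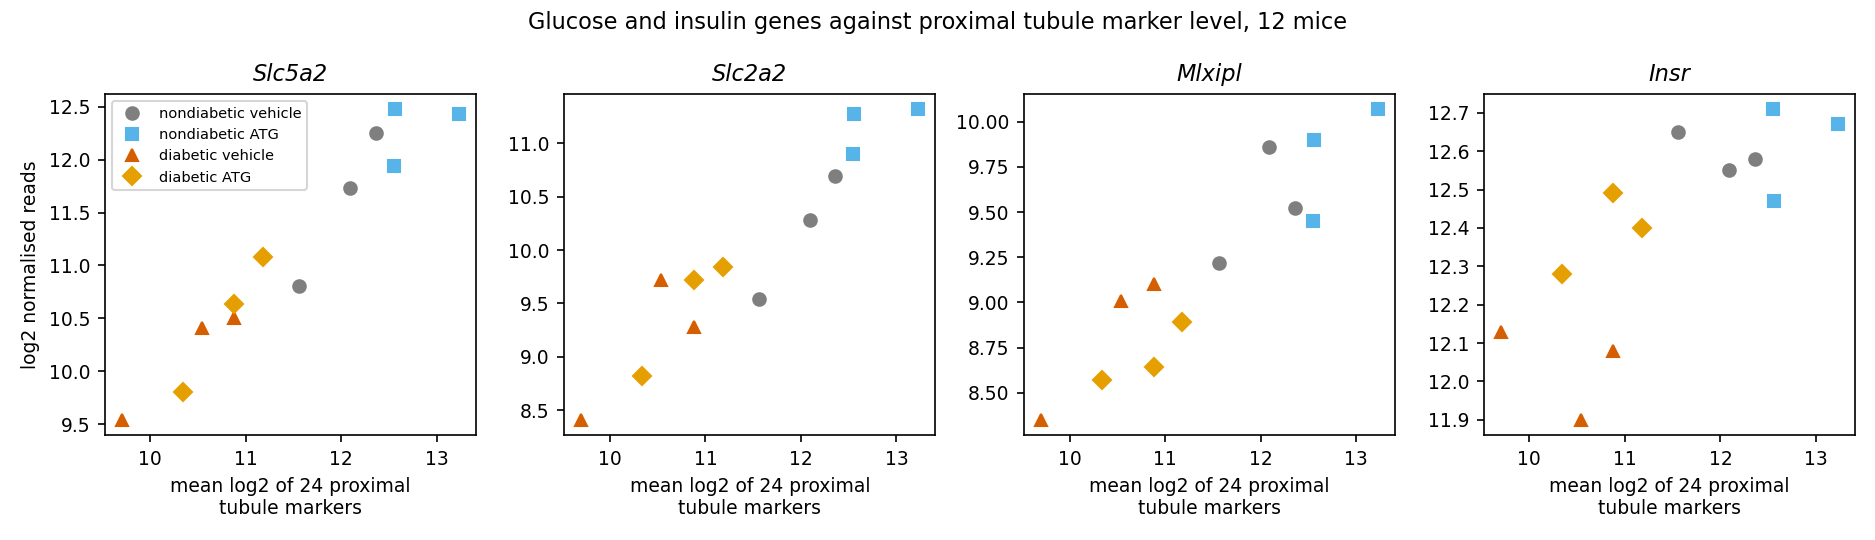
Log2 normalised reads of Slc5a2, Slc2a2, Mlxipl and Insr in each of 12 mice against the mean log2 value of 24 proximal tubule markers in the same mouse, by group. The first 3 genes climb with the marker mean within the groups (r after removal of group means 0.877, 0.854 and 0.810), whereas Insr does not (0.004).

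With the proximal tubule mean added to the fit as a covariate, 0 of the 10 genes passed for diabetes in either treatment, and 12 of all genes (0.0851%) passed in vehicle-treated and 32 (0.227%) in ATG-treated mice. The marker mean did not overlap between diabetic and nondiabetic mice, so that diabetes and the tubule level cannot be told apart by this fit. Slc5a2 then had a log2 change of 0.32 (SE 0.37, limma adjusted p = 0.690) in vehicle-treated and 0.37 (SE 0.43, adjusted p = 0.712) in ATG-treated mice. Slc2a2 had 0.24 (SE 0.43, adjusted p = 0.829), Slc2a1 -0.08 (SE 0.36, adjusted p = 0.942) and Mlxipl -0.01 (SE 0.30, adjusted p = 0.988) under ATG. Insr, no longer called, had -0.56 (SE 0.16, adjusted p = 0.135) and Arrdc4 had 0.46 (SE 0.19, adjusted p = 0.228) in vehicle-treated mice. Mlxip had 0.38 (SE 0.16, adjusted p = 0.270) under ATG. The ATG differences in diabetic mice were -0.41 for Arrdc4, 0.39 for Mlxip and 0.35 for Insr in this fit, beside -0.43, 0.33 and 0.35 without the covariate, with an adjusted p of 0.732 for each in this fit.

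**Figure D4:**
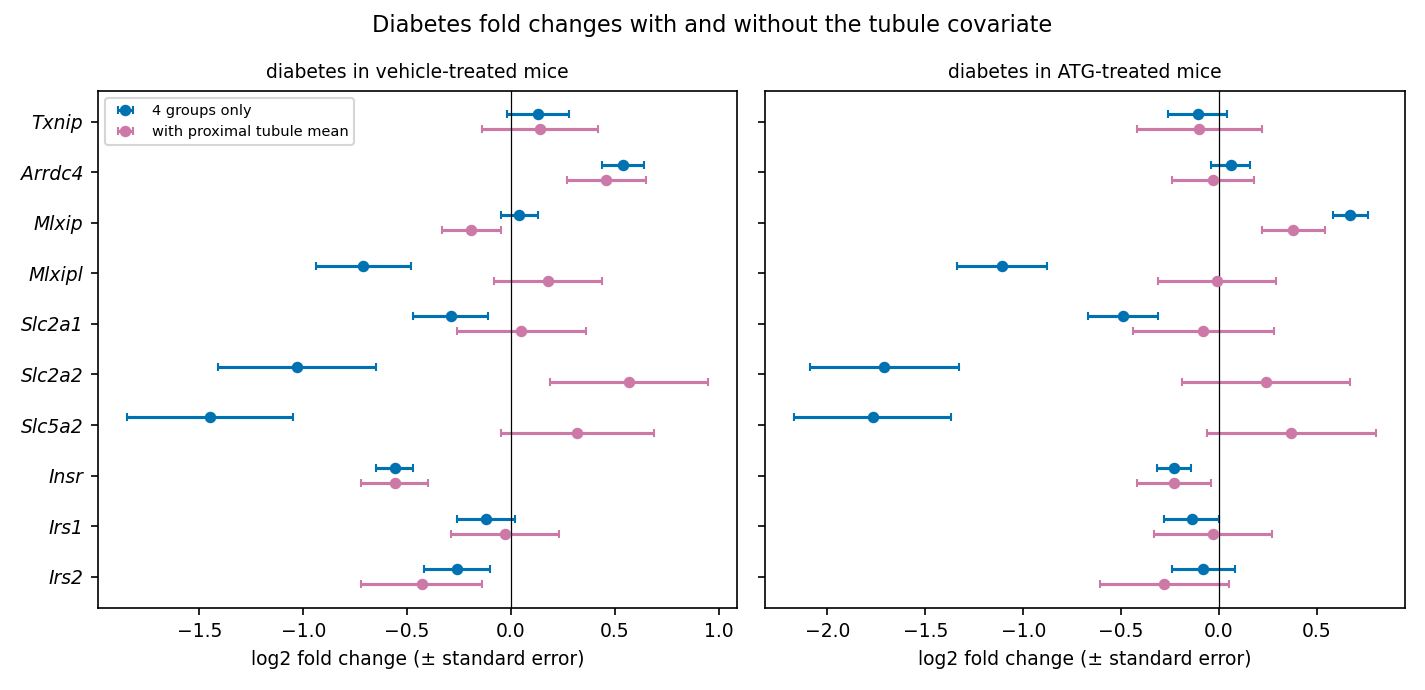
Log2 fold change with diabetes (± standard error) of each of the 10 genes in vehicle-treated and ATG-treated mice, fitted on the 4 groups alone (blue) and with the proximal tubule marker mean added (pink). Slc5a2 goes from -1.45 to 0.32 in vehicle-treated mice, while Insr is at -0.56 in both fits, with a standard error of 0.088 without and 0.16 with the marker mean.

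The insulin receptor was the most clearly lowered of the 10 in vehicle-treated diabetic mice, by rank of p. Insr (chromosome 8, 3150922 to 3279649, minus strand) was at 12.55, 12.65 and 12.58 in nondiabetic vehicle mice and at 11.90, 12.08 and 12.13 in diabetic vehicle mice. The groups did not overlap, and the log2 change was -0.56 (SE 0.088, 95% interval -0.75 to -0.36, limma adjusted p = 0.00445), a fold of 0.679. It passed without any single mouse, at -0.60 to -0.49, and with the leukocyte mean as a covariate it was -0.55 (adjusted p = 0.0514). In ATG-treated mice Insr was at 12.67, 12.71 and 12.47 without and at 12.49, 12.40 and 12.28 with diabetes. These groups overlapped, and every diabetic mouse on ATG lay between the diabetic vehicle and the nondiabetic vehicle mice. The change with diabetes under ATG was -0.23 (SE 0.088, adjusted p = 0.0505), and it passed without nondiabetic ATG mouse 3 (-0.30, adjusted p = 0.0222), diabetic ATG mouse 1 (-0.28, adjusted p = 0.0436) or diabetic vehicle mouse 1 or 3 (both -0.23, adjusted p = 0.0450 and 0.0455). It also passed with median-ratio scaling (-0.27, adjusted p = 0.0278). The ATG difference in diabetic mice was 0.35 (SE 0.088, 95% interval 0.16 to 0.55, unadjusted p = 0.00207), ranked 32 of all genes and did not pass (adjusted p = 0.876). The difference between the effects of ATG was 0.33 (SE 0.12, adjusted p = 0.308). In nondiabetic mice ATG changed Insr by 0.02 (SE 0.088). Insr and Arrdc4 ran in opposite directions over the 12 mice (r = -0.87). After group means were taken off, Insr correlated at 0.713 with the endothelial marker mean (-0.551 before), whose part in the Insr change was not tested.

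The receptor's docking proteins did not pass in any contrast. Irs1 (chromosome 1, 82233105 to 82291439, minus strand) ranged from 10.62 to 11.12 over all 12 mice, the narrowest range of the 10. Its log2 change with diabetes was -0.12 (SE 0.14, 95% interval -0.42 to 0.19) in vehicle-treated and -0.14 (SE 0.14) in ATG-treated mice. Irs2 (chromosome 8, 10984681 to 11008929, minus strand) had a mean of 9.90 ± 0.25 (SD, n = 3) in nondiabetic vehicle, 9.99 ± 0.21 in nondiabetic ATG, 9.63 ± 0.17 in diabetic vehicle and 9.91 ± 0.23 in diabetic ATG mice. Its change with diabetes was -0.26 (SE 0.16, 95% interval -0.61 to 0.09, limma adjusted p = 0.258) in vehicle-treated and -0.08 (SE 0.16, adjusted p = 0.719) in ATG-treated mice. Irs1 and Irs2 correlated over the 12 mice at r = 0.72.

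The counts of the gene lists that follow are to be read against the 18.9% of all genes that passed for diabetes in vehicle-treated mice and the 46.7% under ATG. Over the 170 genes on these lists the shares were near those, at 20.6% and 50.0%. Of the 10 partners of the Mlx network, 2 rose with diabetes in vehicle-treated mice, Mxd3 (log2 change 1.23, adjusted p = 0.0133), a repressor that pairs with Max, and Myc (0.87, adjusted p = 0.0278), and the repressor Mnt fell (-0.33, adjusted p = 0.0432). Mlx, the shared partner of both sensors, was at 0.13 (adjusted p = 0.293). Of the 16 listed of 18 target genes of ChREBP and MondoA, 0 rose and 2 fell, the lipogenic malic enzyme Me1 (-0.88, adjusted p = 0.0300) and the fructose-phosphorylating ketohexokinase Khk (-0.98, adjusted p = 0.0315). The median of these targets was -0.04 against 0.01 for all genes. Of the 9 listed of 10 genes for other alpha-arrestins, the thioredoxin system and the inflammasome sensor Nlrp3, which Txnip binds, Arrdc2 rose (0.91, SE 0.12, adjusted p = 0.00211) and 0 fell. Under ATG, diabetes raised 2 and lowered 1 of the Mlx partners, 3 and 5 of the targets and 1 and 3 of the arrestin and thioredoxin genes. The strongest of these by p were Mxd4 (0.67), Mxd3 (1.70) and Mxi1 (-0.63) among the partners, Klf10 (0.72), Thrsp (1.04), Me1 (-1.42) and Khk (-1.54) among the targets, and Arrdc2 (1.12), Txn2 (-0.57) and Nlrp3 (-0.99) in the last list.

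Among genes of glucose handling, those of gluconeogenesis had the lowest list median. In the kidney this pathway runs in the proximal tubule. Of 9 gluconeogenesis genes 3 fell with diabetes in vehicle-treated mice and 0 rose: glucose-6-phosphatase G6pc (-2.22, SE 0.41, adjusted p = 0.00743), pyruvate carboxylase Pcx (-1.45, adjusted p = 0.0104) and phosphoenolpyruvate carboxykinase Pck1 (-1.55, adjusted p = 0.0469). Their list median was -1.13 against 0.01 for all genes, beside a median of -1.72 for the 24 proximal tubule markers. Under ATG 7 fell, led by Pcx (-1.91) and G6pc (-2.26), and 1 rose, the mitochondrial Pck2 (0.43). Of the 15 listed of 17 other hexose transporters, 1 fell in vehicle-treated mice, the inositol transporter Slc5a3 (-0.65, adjusted p = 0.0473), and the neuronal-type GLUT3 gene Slc2a3 was at -0.02 (adjusted p = 0.941). Under ATG 9 fell, led by Slc5a3 (-1.12) and Slc37a4 (-1.20), and 3 rose, led by Slc2a10 (0.65) and Slc50a1 (0.36). Of the 24 listed of 28 glycolysis genes, the activator of phosphofructokinase Pfkfb3 rose (0.54, adjusted p = 0.0366) and the pyruvate dehydrogenase kinase Pdk2 fell (-0.48, adjusted p = 0.0107). Under ATG 1 rose, Pfkfb3 (0.72), and 7 fell, led by Pdk2 (-0.86) and Pdk1 (-1.16). Hexokinase Hk2 was not listed. Of the 13 polyol and hexosamine genes, 2 rose, Akr1b8 (0.64, adjusted p = 0.0309) and the aldose reductase Akr1b3 (0.31, adjusted p = 0.0350), and 3 fell, the O-GlcNAcase Mgea5 (-0.40, adjusted p = 0.00654), sorbitol dehydrogenase Sord (-1.20, adjusted p = 0.0172) and Khk. Under ATG the same list had 2 higher, Akr1b3 (0.44) and Akr1b8 (0.77), and 6 lower, led by Sord (-1.60) and Khk (-1.54).

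Downstream of the receptor, 6 of 41 listed transducers rose and 2 fell, and 8 of 18 FOXO targets fell. Of all genes, 10.2% rose and 8.63% fell with diabetes in vehicle-treated mice. Of 41 listed of 43 genes of insulin signal transduction, those that rose with diabetes in vehicle-treated mice were led by the adaptor Sh2b2 (0.80, adjusted p = 0.00589), the kinase Akt1 (0.31, adjusted p = 0.00753) and the phosphoinositide 3-kinase subunit Pik3r3 (0.46, adjusted p = 0.0174). The 2 that fell were the insulin receptor-related receptor Insrr (-1.29, adjusted p = 0.00748) and Mtor (-0.20, adjusted p = 0.0481). Akt2, the main insulin-responsive Akt, was at 0.05 (adjusted p = 0.623), Pik3r1 at -0.07 (adjusted p = 0.469) and Foxo1 at -0.13 (adjusted p = 0.217). Of the 20 listed of 22 inhibitors of the pathway 1 rose, the docking protein gene Dok1 (0.36, adjusted p = 0.0172), and 4 fell, led by Grb7 (-1.28, adjusted p = 0.0112), Prkcq (-0.45, adjusted p = 0.0151) and Enpp1 (-0.92, adjusted p = 0.0321). FOXO factors are held out of the nucleus by insulin signalling and drive genes of fasting and stress defence. No FOXO target rose, and those that fell were led by Igfbp1 (-2.15, SE 0.26, adjusted p = 0.00199), which binds insulin-like growth factors, G6pc and the ubiquitin ligase Fbxo32 (-0.47, adjusted p = 0.0114), and the list median was -0.44 against 0.01. G6pc and Pck1 stand in this list and among the gluconeogenesis genes, and the part of the tubule level in the changes of any of these lists was not tested. Under ATG diabetes raised 14 and lowered 4 of the transducers, led by Akt1 (0.50), Sh2b2 (0.97), Insrr (-1.46) and Tsc1 (-0.36). The inhibitors then had 5 higher, led by Dok1 (0.54) and Ptpn1 (0.57), and 5 lower, led by Grb7 (-1.52) and Enpp1 (-1.20), and the FOXO targets 1 higher, Gadd45a (0.93), and 9 lower, led by Igfbp1 (-2.75) and Cat (-0.95).

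ATG in diabetic mice changed 0 genes of these lists. In nondiabetic mice 6 of the 170 genes on the lists (3.53%) passed, against 5.22% of all genes, and none of them did when only the compared groups were fitted, where 0 of all genes passed. With all 4 groups fitted, ATG there raised the FOXO targets Igfbp1 (1.44, SE 0.26, adjusted p = 0.0151) and Cat (0.57, adjusted p = 0.0259). It lowered Pik3r1 (-0.35, adjusted p = 0.0184), Pik3cd (-0.54, adjusted p = 0.0360), Slc2a10 (-0.72, adjusted p = 0.0281) and Akr1b7 (-0.95, adjusted p = 0.0443). No gene of the lists passed for the difference between the effects of ATG.

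The genes with the pattern most like each of the 10, by Pearson's r of log2 values over the 12 mice, were closest for the transporters. For Slc5a2 they were Cyp2d26 (r = 0.994), Gpx3 (0.993) and Spp2 (0.992), for Slc2a2 Slc4a4 (0.993), Nox4 (0.992) and Apob (0.992), and for Slc2a1 Idh3a (0.995), Cds1 (0.990) and Got1 (0.989). Slc4a4 is itself among the 24 proximal tubule markers. Mlxipl was nearest to Klc4 (0.971), D630013N20Rik (0.967) and Csrp2 (0.965), and Mlxip to Ermard (0.960), Hyal1 (0.959) and Fam13c (0.956). Insr was nearest to Lin52 (0.922), Erc2 (0.907) and Lama3 (0.893), Txnip to Cacnb3 (0.915) and Ints7 (0.898), and Arrdc4 to Zfp90 (0.90), Slc7a6os (0.896) and Fam105a (0.895). The substrates had the weakest neighbours, 2210408F21Rik (0.841), Fam221a (0.823) and Cnnm4 (0.815) for Irs1 and Eda (0.814), Mnt (0.811) and Spink5 (0.795) for Irs2. Among the 10 themselves the closest pair was Slc2a2 and Slc5a2 (r = 0.98), and Mlxip and Mlxipl ran in opposite directions (r = -0.84). These correlations describe 12 libraries that share 4 groups and a tubule level that differed between them.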

How the data were processed

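The 12 tables held deposited log2 values that the authors had normalised, with 1 factor per library and no division by transcript length. Per the labels, build mm10 and limma were used upstream, while the aligner and counter are not given in the sources used here. The labels' protocol also describes digestion and sorting of glomerular cells, whereas the RNA is labelled glomerular. Reads were recovered by dividing each linear value by the library's step; 83.4% to 84.1% of values under 2000 came out whole within 0.02.

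Groups were fitted together with limma 3.58.1 in R 4.3.3 (lmFit, eBayes with a variance trend), without covariates, and p-values were adjusted over 14096 genes by the Benjamini-Hochberg method. A gene was called at an adjusted p under 0.05. Nothing states more than 1 library per mouse, and p-values measure the spread between mice of a group. Within groups, libraries correlated at 0.972 to 0.994. The genes and lists were chosen with earlier results of these data known. Named genes were all 10, and from each list up to 3 per direction with the lowest p for diabetes in vehicle-treated mice, up to 2 for other contrasts, and fixed key genes; the 3 genes most alike in pattern were named for each, less 1 that is not reported here. Alternatives were other samples, a replicate block, covariates, scaling, a pseudocount, a filter and limma-voom. The fit was tested on simulated data. Python 3.11.15 drew the figures and searched the promoters.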

Additional observations from a re-analysis of the deposited data

How the results depend on the processing

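For diabetes in vehicle-treated mice 3 of the 10 genes passed, and 2 to 5 did when a mouse was left out (5 without nondiabetic vehicle mouse 2). The count was 0 with the proximal tubule mean as a covariate and 0 with the leukocyte mean, an alternative chosen after the data were seen, in fits that called 0.0851% and 1.34% of all genes. For diabetes in ATG-treated mice the count was 5, 5 with the leukocyte mean (37.7% of all genes), 0 with the tubule mean (0.227%) and 4 to 6 without a mouse. With the tubule mean the sign of called changes turned for Slc5a2 (0.32 in vehicle-treated and 0.37 in ATG-treated mice) and Slc2a2 (0.24 in ATG-treated mice). Of changes not called, it turned in vehicle-treated mice for Slc2a2 (0.57), Mlxipl (0.18), Slc2a1 (0.05) and Mlxip (-0.19), and under ATG for Arrdc4 (-0.03). The effect of ATG without diabetes and the difference between both ATG effects gave 0, and 0 to 1 without a mouse (1, Mlxip, without nondiabetic ATG mouse 2 or diabetic vehicle mouse 3). Without both unnumbered mice Slc5a2 was lost in vehicle-treated mice (-1.12, adjusted p = 0.112), Slc2a1 was lost (-0.33, adjusted p = 0.203) and Insr gained (-0.30, adjusted p = 0.0344) in ATG-treated mice. By the rule that every pair must exceed 0.1, the replicate numbers did not pair the mice: deviations from group means of same-numbered mice correlated at -0.025 and -0.257 between the vehicle groups, -0.047 and 0.254 between the nondiabetic groups, 0.315, 0.054 and 0.339 between the diabetic groups and 0.178 and 0.035 between the ATG groups, and the unnumbered mice carried the number 3 only as a name. With the replicate block 1 gene passed for ATG in nondiabetic mice, Slc2a2 (1.00, adjusted p = 0.0271; 6.71% of all genes), and Slc5a2 with diabetes in vehicle-treated mice was at -0.90 (adjusted p = 0.0754) and Slc2a1 under ATG at -0.32 (adjusted p = 0.219), both lost, while 1375 of all genes passed in the former contrast against 2659 without the block. In the block fit the mice numbered 3 were all diabetic and the unnumbered mice all nondiabetic. Its diabetes contrasts thus compare mice within numbers 1 and 2 only. Beyond this, the cause was not tested for any of these changes. Over all genes, leaving out a mouse gave 801 to 3357 for diabetes in vehicle-treated mice, 4766 to 7451 in ATG-treated mice, 60 to 3531 for ATG in nondiabetic mice and 6 to 770 for the interaction of diabetes and ATG. A pseudocount of 10 left the number of the 10 genes called as it was in every contrast. Median-ratio scaling and a mean log2 value of at least 7 gave 6 in place of 5 for diabetes in ATG-treated mice, with Insr added under median-ratio scaling (-0.27, adjusted p = 0.0278), and fits without a variance trend or by limma-voom gave 4, without Slc2a1. Limits are 3 mice per group, a tubule level that differs with diabetes, and values without a deposited count.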
